A study of Mus musculus with 16 samples.

Results

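The tuft cell markers followed here are 8 genes, Trpm5, Sh2d6, Avil, Dclk1, Gfi1b, Pou2f3, Il25 and Il17rb, chosen by name as the probes whose gene name in the scanner files equals one of these symbols. They are 8 of 34947 gene names and 12 of 55681 probes on the array. Their RNA was measured in colon outside macroscopic tumours, taken at day 28 from 16 mice, all ApcMin/+, a genotype with 1 mutant copy of the tumour suppressor Apc that develops intestinal adenomas. The 6 5-ASA mice had 1.5% dextran sulphate sodium (DSS), a polymer that injures the colonic epithelium, in their water for 3 days and were treated with 5-aminosalicylic acid (5-ASA), an anti-inflammatory drug for colitis. The 6 Control mice had the same DSS course with saline in place of the drug, and the 4 Sham mice drank plain water throughout. The labels differ on dosing: one text has 5-ASA or saline given into the colorectum, and the sample descriptions have 5-ASA or plain water to drink after DSS. Age and sex are not given in the sources used here. One single-colour Agilent array was run per mouse.

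Tuft cells are rare epithelial cells with an apical tuft of microvilli that sense luminal contents. The transcription factor Pou2f3 is required for their formation, and they signal through a taste-like cascade that ends in the cation channel Trpm5. In the small intestine they release interleukin 25 (Il25), which acts through the receptor subunit Il17rb on innate lymphoid cells of type 2, and the interleukin 13 those cells make increases tuft and goblet cells.

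Values are log2 intensity relative to each array's 75th percentile, so a value of -1 is an intensity at 50% of that percentile. A probe's own sequence and binding set its brightness, and levels of different probes are therefore not compared. The results turn on 4 probes that varied together from mouse to mouse and on 3 probes of Dclk1 that did not all do so. Their sequences, with that of Il25, whose group difference was the largest among the members in size, are given 5′ to 3′ in lower case as the scanner files hold them.
Trpm5, on the minus strand, listed at chr7:150257434-150257456 in mm9: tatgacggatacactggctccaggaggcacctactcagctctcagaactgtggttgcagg
Sh2d6, on the minus strand, listed at chr6:72465596-72465950 in mm9: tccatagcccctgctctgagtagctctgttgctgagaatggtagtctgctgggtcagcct
Avil, on the plus strand, listed at chr10:126453541-126454065 in mm9: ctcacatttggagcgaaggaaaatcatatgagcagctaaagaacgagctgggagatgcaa
Dclk1 upstream probe, plus strand, chr3:55266925-55266984 in mm9: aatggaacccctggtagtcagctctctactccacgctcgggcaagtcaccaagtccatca
Dclk1 representative probe, plus strand, chr3:55273441-55273500 in mm9: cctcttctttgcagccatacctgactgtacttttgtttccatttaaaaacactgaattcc
Dclk1 downstream probe, plus strand, chr3:55340456-55340515 in mm9: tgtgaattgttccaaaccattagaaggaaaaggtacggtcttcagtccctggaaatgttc
Il25, plus strand, chr14:55554319-55554378 in mm9: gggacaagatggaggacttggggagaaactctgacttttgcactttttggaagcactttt

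Each of these probes is 60 bases long. For Trpm5, Sh2d6 and Avil the listed interval differs from that length (23, 355 and 525 bases), so it is given as listed. The files name a RefSeq transcript of the gene for every one of these probes, and an mm9 annotation that would place them in exons or untranslated regions was not used here. The representative Dclk1 probe is the kept Dclk1 probe with the highest mean, which stands for the gene in the tests. The downstream and upstream probes each list 4 RefSeq transcripts of Dclk1, and the representative probe lists 2. The remaining probes are those of Gfi1b (chr2:28464982-28465041, minus strand), Pou2f3 (chr9:42932963-42933022, minus strand), Il17rb (chr14:30809354-30809413 and chr14:30819260-30819319, minus strand) and a further, dim probe of Dclk1 (chr3:55325921-55325980), all in mm9.

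The label was checked against detection. A probe was tested where its spot stood well above background in 4 or more mice, which 9 of the 12 probes did, for 7 genes. The probes of Trpm5, Sh2d6, Avil, Gfi1b and 3 of Dclk1 and the first of Il17rb were well above background on all 16 arrays. The defining factor Pou2f3 was well above background on 3 of 16 arrays (0 of 6 5-ASA, 2 of 6 Control and 1 of 4 Sham), below the filter. The dim Dclk1 probe was so on 0 of 16 and the second Il17rb probe on 2 of 16, both 5-ASA. The data are of whole tissue, so fewer tuft cells and less of an RNA per tuft cell cannot be told apart.

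The arrays lay on 2 slides in 2 rows each. All 4 Sham arrays and 4 Control arrays (Control 1, 2, 4 and 5) were in the first row, and all 6 5-ASA arrays and the other 2 Control arrays (Control 3 and 6) in the second. Arrays of the second row had 53.0% to 57.7% of spots well above background, and those of the first row 59.8% to 65.2%. 5-ASA and Sham thus share no row, and their group and row cannot be told apart without the 6 Control mice. Control 4 stood apart: it was the lowest of the 16 mice for 4 of the 7 tested members and for 19.0% of all 24541 genes tested. Its diarrhoea score at day 28 was 1, against 0.5 to 1.5 over the 6 Control mice.

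No member passed the test in any comparison of the groups. With limma and Benjamini-Hochberg adjustment over 24541 genes, 0 of 7 members passed an adjusted p of 0.05 for Control minus Sham, where 13 genes (0.053%) did. The count was 0 of 7 for 5-ASA minus Control, where 0 genes (0%) passed, and 0 of 7 for 5-ASA minus Sham, where 13 genes (0.053%) passed. At an unadjusted p of 0.05, 1 of 7 members passed in each of these comparisons, against 8.9% of all genes for Control minus Sham, 4.09% for 5-ASA minus Control and 11% for 5-ASA minus Sham. Those members were Dclk1 against Sham in both cases, and Il25 between 5-ASA and Control. The groups overlapped for 7 of 7 members in all 3 comparisons, whereas values of the 2 groups did not overlap for 3.35% of all genes in Control minus Sham, 0.13% in 5-ASA minus Control and 1.83% in 5-ASA minus Sham. The median member difference was -0.18 for Control minus Sham, 0.11 for 5-ASA minus Control and 0.03 for 5-ASA minus Sham, on the log2 scale, and the median over all genes was 0.00 in each. These medians were not stable. Without Control 4 they were -0.024 for Control minus Sham and -0.043 for 5-ASA minus Control. With the row of the array as a covariate they were -0.10 for 5-ASA minus Control and -0.21 for 5-ASA minus Sham. The row covariate rests on the Control mice, with Control 4 among those of the first row, so these changes are not independent.

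**Figure D1:**
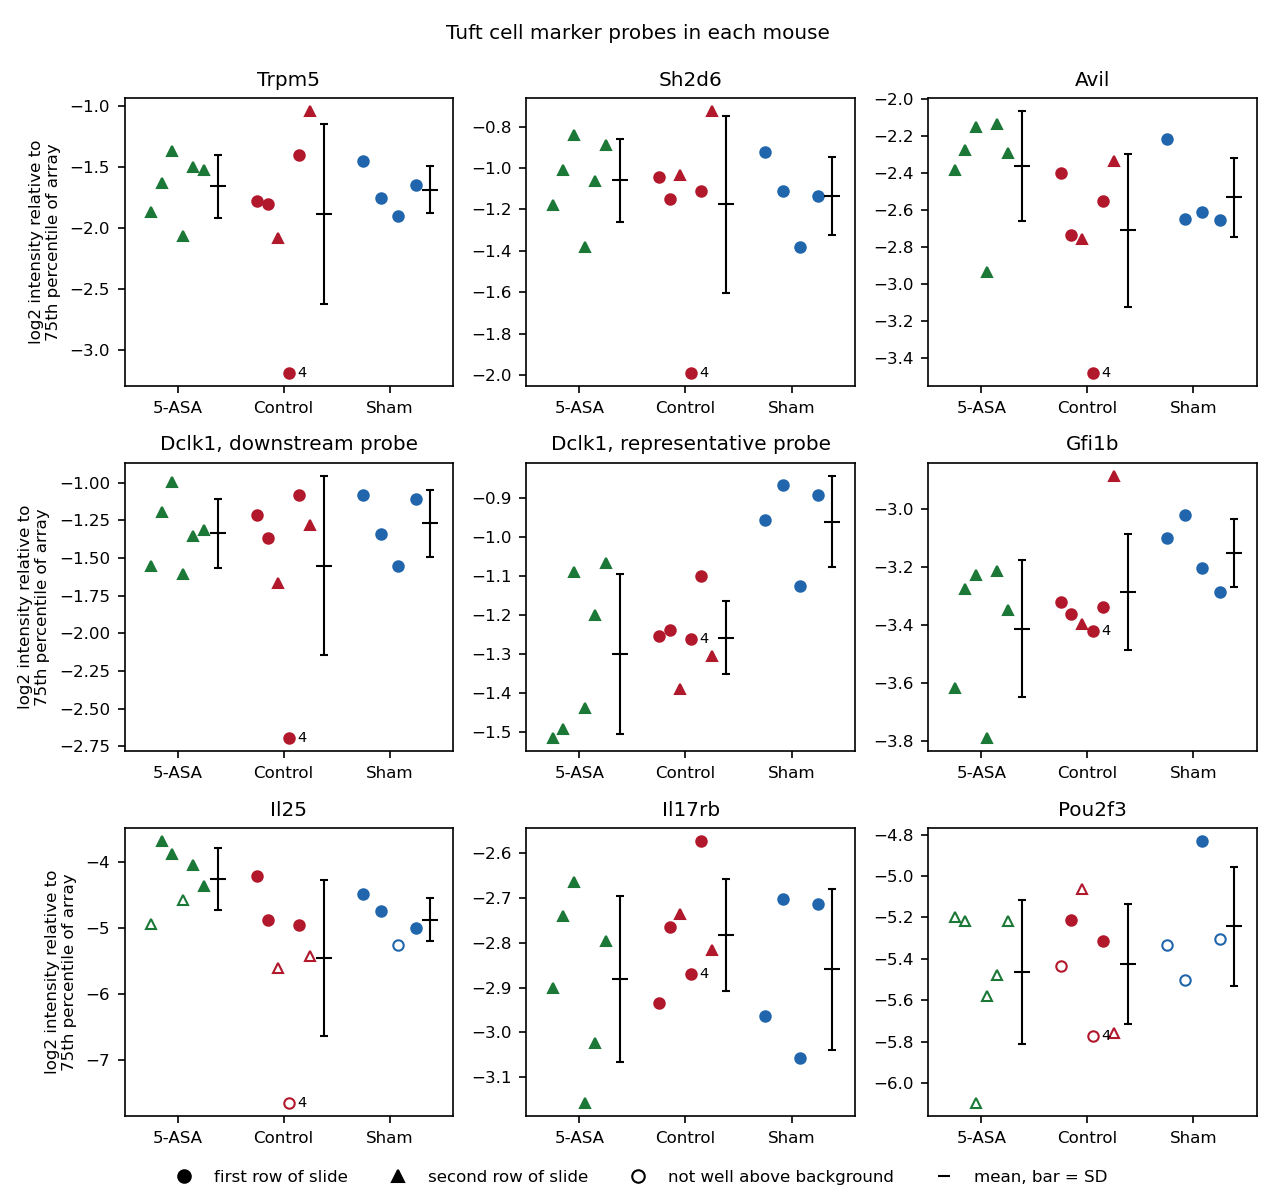
Log2 intensity relative to the array's 75th percentile (y axis) of 9 marker probes in 5-ASA, Control and Sham mice (x axis), 1 point per mouse, with circles for the first and triangles for the second row of the slide and open points not well above background. Bars give mean and SD. The digit 4 marks Control 4, the lowest mouse for Trpm5, Sh2d6, Avil, Il25 and the downstream Dclk1 probe, but not for the representative Dclk1 probe, Gfi1b, Il17rb or Pou2f3.

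Trpm5 is the calcium-activated channel that depolarises tuft cells. It lay at -2.06, -1.58 and -1.36 (lowest, median, highest) in the 6 5-ASA mice, at -3.20, -1.79 and -1.04 in the 6 Control mice, and at -1.45, -1.75, -1.90 and -1.64 in Sham 1 to 4. The 3 groups overlapped, and both the lowest and the highest mouse were Control mice. Its difference was 0.23 for 5-ASA minus Control (95% interval -0.35 to 0.80), 0.03 for 5-ASA minus Sham (-0.61 to 0.67) and -0.20 for Control minus Sham (-0.84 to 0.44).

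Sh2d6 encodes an SH2-domain adaptor protein used as a tuft cell marker. Its values were -1.38, -1.03 and -0.84 (lowest, median, highest) in 5-ASA mice, -1.99, -1.08 and -0.73 in Control mice, and -0.92, -1.11, -1.38 and -1.13 in Sham 1 to 4. As for Trpm5, the Control mice held both ends of the range. The difference was 0.11 for 5-ASA minus Control (-0.25 to 0.48), 0.08 for 5-ASA minus Sham (-0.33 to 0.48) and -0.04 for Control minus Sham (-0.44 to 0.37).

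Avil encodes advillin, an actin-binding protein of the tuft. It lay at -2.93, -2.28 and -2.13 (lowest, median, highest) in 5-ASA mice, at -3.48, -2.64 and -2.33 in Control mice, and at -2.22, -2.65, -2.61 and -2.65 in Sham 1 to 4. The 5-ASA mice other than 5-ASA 4 were in the upper part of the range, and all groups overlapped. Its difference of 0.35 for 5-ASA minus Control had an interval that included 0 (-0.04 to 0.74), as did those of 0.17 for 5-ASA minus Sham (-0.27 to 0.61) and -0.18 for Control minus Sham (-0.62 to 0.26).

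Several of these small differences turned sign when Control 4 was left out. Without it, the Control minus Sham difference was 0.06 for Trpm5 and 0.13 for Sh2d6, and the 5-ASA minus Control difference -0.04 for Trpm5 and -0.05 for Sh2d6. Leaving out Sham 1 also turned the Control minus Sham difference of Sh2d6, to 0.0333. For Avil, the differences without Control 4 were smaller in size, at 0.19 for 5-ASA minus Control and -0.02 for Control minus Sham. With the row as a covariate, 5-ASA minus Control was -0.10 for Trpm5 and -0.18 for Sh2d6. In that fit 5-ASA minus Sham was -0.46 for Trpm5, -0.37 for Sh2d6 and -0.08 for Avil, and all these intervals included 0. The row covariate rests on the Control mice, with Control 4 in the first row, so its effect is not separate from that of Control 4. The row difference ranged from -0.04 to 1.00 for Trpm5 and from 0.22 to 0.60 for Sh2d6 when each mouse was left out in turn.

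Dclk1 encodes a microtubule-associated kinase of the doublecortin family and is the classical tuft cell marker of mouse intestine. It is also expressed in neurons, and the gene gives rise to long and short proteins from different promoters. The representative probe lay at -1.52, -1.32 and -1.07 (lowest, median, highest) in 5-ASA mice, at -1.39, -1.26 and -1.10 in Control mice, and at -0.96, -0.87, -1.13 and -0.89 in Sham 1 to 4. Of the 4 Sham mice, 3 were above all 12 DSS mice, and Sham 3 lay among them.
The difference was -0.34 ± 0.10 (SE) for 5-ASA minus Sham, with an unadjusted limma p of 0.00499 and an adjusted p of 0.334. It was -0.30 ± 0.10 for Control minus Sham, with an unadjusted limma p of 0.0115 and an adjusted p of 0.559. Both comparisons use the same 4 Sham mice. For 5-ASA minus Control the difference was -0.04 (-0.24 to 0.15), and with the row as a covariate 5-ASA minus Sham was -0.21 (-0.58 to 0.17).

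The other detected probes of Dclk1 gave different patterns. The upstream probe lay at -2.73, -2.57 and -2.40 (lowest, median, highest) in 5-ASA mice, at -2.96, -2.61 and -2.26 in Control mice, and at -2.52, -1.94, -2.33 and -2.21 in Sham 1 to 4. Its differences were -0.33 for 5-ASA minus Sham and -0.32 for Control minus Sham, with unadjusted p of 0.0355 and 0.0396 in the limma fit of single probes and adjusted p of 0.423 and 0.572. With the row as a covariate they were -0.57 and -0.40 (unadjusted limma p 0.0295 and 0.0204), larger in size, whereas the 5-ASA minus Sham difference of the representative probe was smaller there.
The downstream probe lay at -1.60, -1.34 and -0.99 in 5-ASA mice, at -2.70, -1.33 and -1.08 in Control mice, and at -1.08, -1.34, -1.55 and -1.11 in Sham 1 to 4. Here Sham mice were spread over the range of the DSS mice and Control 4 was far below all others. Its differences had intervals that included 0, at -0.07 for 5-ASA minus Sham (-0.60 to 0.47), -0.28 for Control minus Sham (-0.82 to 0.25) and 0.21 for 5-ASA minus Control (-0.26 to 0.69).

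**Figure D2:**
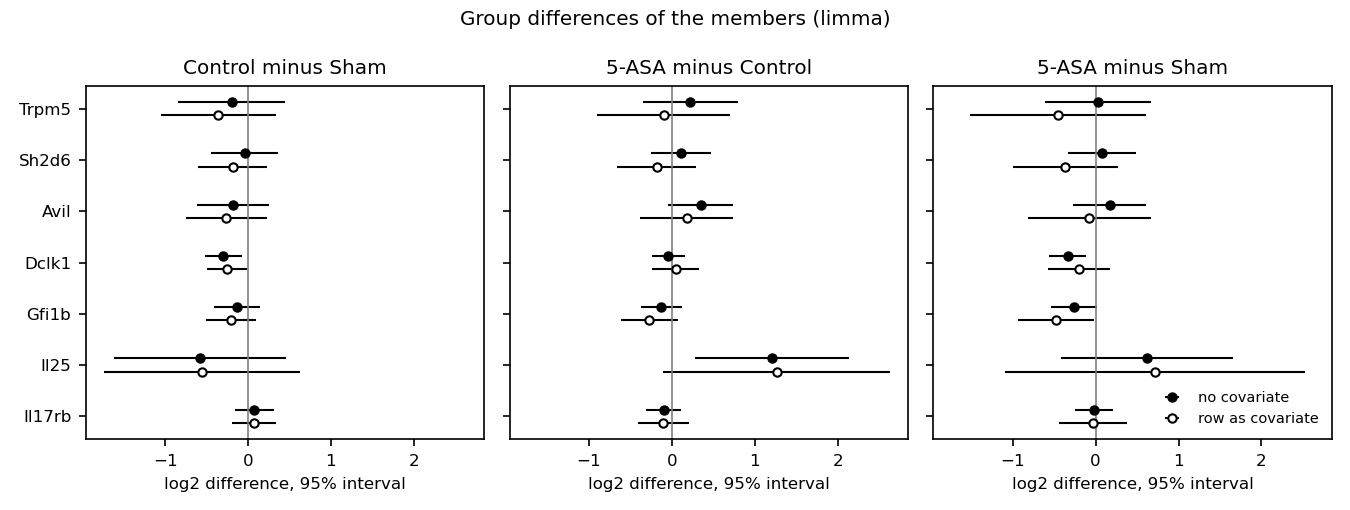
Log2 differences (x axis) of the 7 tested members (y axis) for Control minus Sham, 5-ASA minus Control and 5-ASA minus Sham, from limma, with 95% intervals. Filled points are without a covariate and open points with the row of the array as a covariate. Without the covariate, the intervals that leave out 0 are those of Dclk1 against Sham (-0.30 and -0.34) and of Il25 for 5-ASA minus Control (1.21).

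Il25 encodes the cytokine by which tuft cells signal to the mucosal immune system. It was near the detection limit, well above background in 4 of 6 5-ASA, 3 of 6 Control and 3 of 4 Sham mice. Its values were -4.94, -4.21 and -3.68 (lowest, median, highest) in 5-ASA mice, -7.66, -5.19 and -4.21 in Control mice, and -4.49, -4.74, -5.25 and -5.00 in Sham 1 to 4. The 5-ASA mice were mostly at the upper end, but Control 1, Control 2, Sham 1 and Sham 2 lay within their range. Control 4 was far below the rest.
The 5-ASA minus Control difference was 1.21 ± 0.44 (SE; interval 0.27 to 2.14), with an unadjusted limma p of 0.0146 and an adjusted p of 0.999. Since 2 of the 6 5-ASA and 3 of the 6 Control arrays were not well above background, no fold is given. The difference ranged from 0.76, without Control 4, to 1.45 when each mouse was left out in turn, and was 1.26 with the row as a covariate (interval -0.10 to 2.63). The difference was 0.62 for 5-ASA minus Sham (-0.42 to 1.66) and -0.58 for Control minus Sham (-1.62 to 0.46), the second of which was -0.14 without Control 4.

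Il17rb encodes the receptor subunit that binds interleukin 25. Its tested probe varied little, at -3.16, -2.85 and -2.66 (lowest, median, highest) in 5-ASA mice, at -2.93, -2.79 and -2.57 in Control mice, and at -2.96, -2.70, -3.06 and -2.71 in Sham 1 to 4. The groups overlapped almost wholly, and Control 4 lay near the middle. The differences were -0.10 for 5-ASA minus Control (-0.31 to 0.11), -0.02 for 5-ASA minus Sham (-0.25 to 0.21) and 0.08 for Control minus Sham (-0.16 to 0.31).
The second Il17rb probe was well above background only on the arrays of 5-ASA 3 (-3.59) and 5-ASA 4 (-4.09). It did not pass the filter. The 6 5-ASA mice averaged -5.74, against -5.73 in the 2 Control mice of the same row, so no difference is given for it.

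Gfi1b is a zinc-finger transcriptional repressor known from erythroid and megakaryocytic cells as well as from tuft cells. It lay at -3.79, -3.31 and -3.21 (lowest, median, highest) in 5-ASA mice, at -3.42, -3.35 and -2.89 in Control mice, and at -3.10, -3.02, -3.20 and -3.28 in Sham 1 to 4. All 6 5-ASA mice were below 3 of the Sham mice, and the groups overlapped. Its difference was -0.26 for 5-ASA minus Sham (-0.54 to 0.02), -0.12 for 5-ASA minus Control (-0.37 to 0.12) and -0.14 for Control minus Sham (-0.41 to 0.14). With the row as a covariate, 5-ASA minus Sham was -0.48 (-0.94 to -0.02), with an unadjusted limma p of 0.0424 and an adjusted p of 0.9999. The row difference of Gfi1b in that fit was 0.22 and rests on the Control mice. Without Control 6, the highest of the 16 mice for Gfi1b (-2.89), the row difference was -0.04. The shift from -0.26 to -0.48 thus rests largely on that mouse.
Markers of the erythroid and megakaryocytic lineage also differed between mice. Of the 10 on that list 7 were tested, Gata1, Klf1 and Gp9 were under the filter, and the log2 of their summed intensity ranged from 4.05 to 5.18 in 5-ASA mice, from 4.71 to 7.85 in Control mice and from 4.82 to 5.37 in Sham mice. One of them passed the test over all genes: Ppbp, a platelet chemokine, was higher by 2.39 in Control than in Sham (limma adjusted p = 0.0288). Ppbp was well above background on only 5 of 16 arrays, with means of -6.12 in 5-ASA, -4.02 in Control and -6.41 in Sham mice. The size of its difference thus rests on values near the detection limit. Over the 16 mice Gfi1b and the mean of that list had a Pearson r of 0.06. The list's part in the Gfi1b values was not otherwise tested.

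Pou2f3, the POU-domain factor that specifies the lineage, gave values near background in most mice. They were -6.10, -5.35 and -5.20 (lowest, median, highest) in 5-ASA mice, -5.77, -5.37 and -5.06 in Control mice, and -5.33, -5.50, -4.83 and -5.31 in Sham 1 to 4. In the fit without a filter its differences were -0.22 for 5-ASA minus Sham (-0.65 to 0.20), -0.04 for 5-ASA minus Control (-0.42 to 0.34) and -0.18 for Control minus Sham (-0.61 to 0.24). A change in Pou2f3 was not detectable at this signal.

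Across individual mice, and apart from the groups, several of the markers varied together. Over the 16 mice Trpm5 and Sh2d6 had a Pearson r of 0.921 and a Spearman rho of 0.762 (permutation p 5e-05 and 0.00083, adjusted 0.00126 and 0.00996). Trpm5 and Avil had an r of 0.865 and a rho of 0.776 (permutation p 0.00017 and 0.00072, adjusted 0.00162 and 0.00996). Sh2d6 and Avil had an r of 0.863 and a rho of 0.706 (permutation p 0.00018 and 0.00339, adjusted 0.00162 and 0.0305).
These 3 genes lie on different chromosomes and encode a channel, an adaptor and a cytoskeletal protein. Adjustment was over 36 pairs, 21 among the 7 tested members and 15 with the other 2 Dclk1 probes. Of the 21, all had an r above 0, with a median of 0.316, and 4 passed an adjusted p of 0.05 by Pearson and 5 by Spearman. The other Pearson pair was Avil with Il25, at an r of 0.823 and a rho of 0.685 (permutation p 0.00074 and 0.00441, adjusted 0.00533 and 0.0318). Il25 was well above background on 10 of 16 arrays. Trpm5 with Gfi1b passed by Spearman alone, at a rho of 0.641 and an r of 0.51 (permutation p adjusted 0.043 and 0.155).

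**Figure D3:**
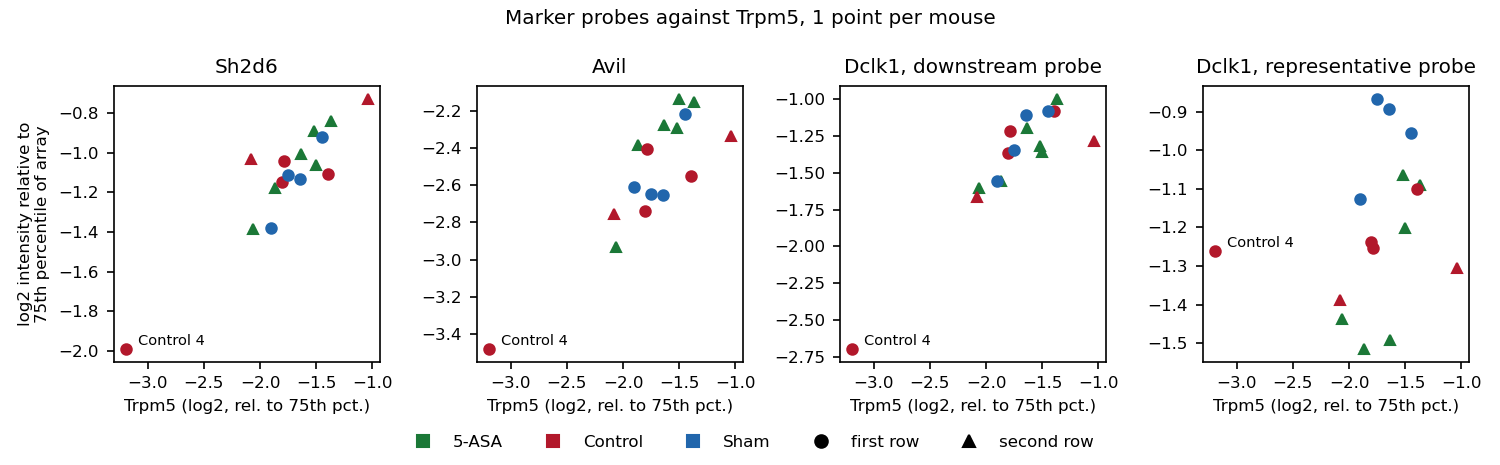
Trpm5 (x axis) against Sh2d6, Avil, the downstream Dclk1 probe and the representative Dclk1 probe (y axes), all log2 intensity relative to the array's 75th percentile, 1 point per mouse, colours for groups and shapes for rows. The first 3 panels run upward with Trpm5 (r 0.921, 0.865 and 0.915), with Control 4 at the lower end, and the last does not (r 0.254).

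The 3 Dclk1 probes differed in whether they moved with these genes. The downstream probe had an r of 0.915 and a rho of 0.841 with Trpm5 (permutation p 7e-05 and 8e-05, adjusted 0.00126 and 0.00288). The representative probe had an r of 0.254 and a rho of 0.409 with Trpm5 (permutation p 0.358 and 0.117, adjusted 0.486 and 0.211), and the upstream probe an r of -0.163 and a rho of -0.07 (permutation p 0.537 and 0.79, adjusted 0.677 and 0.861).
The downstream probe also had an r of 0.858 with Sh2d6, 0.819 with Avil and 0.842 with Il25 (Pearson permutation p adjusted 0.00602, 0.00602 and 0.00922). By Spearman its pair with Il25 did not pass (rho 0.506, permutation p adjusted 0.123). Among the Dclk1 probes themselves, r was 0.338 between the downstream and the representative probe and 0.513 between the upstream and the representative probe, and neither passed (permutation p adjusted 0.406 and 0.121). Within the second row, r with Trpm5 was 0.77 for the downstream, 0.551 for the representative and 0.593 for the upstream probe. Within the first row it was 0.987, 0.506 and -0.344 in the same order, so the contrast was smaller in the second row. On deviations from the group means, the representative probe had an r of 0.318 and a rho of 0.606 with Trpm5 (permutation p adjusted 0.249 and 0.0487). The difference between the correlations of the 3 probes was not tested.

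Most of these coefficients were lower without Control 4. Without it, r over 15 mice was 0.772 for Trpm5 with Sh2d6 and 0.683 for Trpm5 with Avil. It was 0.681 for Sh2d6 with Avil and 0.721 for Trpm5 with the downstream Dclk1 probe. These passed by Pearson (permutation p adjusted 0.0306, 0.0434, 0.0434 and 0.0419). By Spearman 2 of 21 member pairs passed without Control 4, and Sh2d6 with Avil did not (rho 0.643, permutation p adjusted 0.104). The downstream Dclk1 probe then had an r of 0.553 with Sh2d6, 0.546 with Avil and 0.484 with Il25, and none of these passed (permutation p adjusted 0.122, 0.122 and 0.166). Avil with Il25 was then 0.579 (adjusted 0.122), and Trpm5 with Il25 0.194, against 0.726 with all mice. Gfi1b, by contrast, had an r with Trpm5 of 0.677 without Control 4 (permutation p adjusted 0.0434) and of 0.51 with all 16 mice (adjusted 0.155). By Spearman this pair went the other way. Its rho was 0.586 without Control 4 (permutation p adjusted 0.118) and 0.641 with all 16 mice (adjusted 0.043).
Within the first row (8 mice, Control 4 among them) r was 0.955 for Trpm5 with Sh2d6, 0.92 for Trpm5 with Avil and 0.941 for Sh2d6 with Avil. Trpm5 with Avil did not pass there (permutation p adjusted 0.038, 0.0714 and 0.038 in this order). By Spearman 0 of 21 member pairs passed within the first row. Within the second row (8 mice) r was 0.837, 0.75 and 0.642 in the same order, and no pair passed the adjusted threshold there. Without the 2 mice farthest from the median, r was 0.672, 0.746 and 0.712, and again no pair passed (lowest adjusted permutation p 0.0577 over 14 mice). On deviations from the group means, r was 0.924 for Trpm5 with Sh2d6, 0.885 for Trpm5 with Avil and 0.892 for Sh2d6 with Avil.

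**Figure D4:**
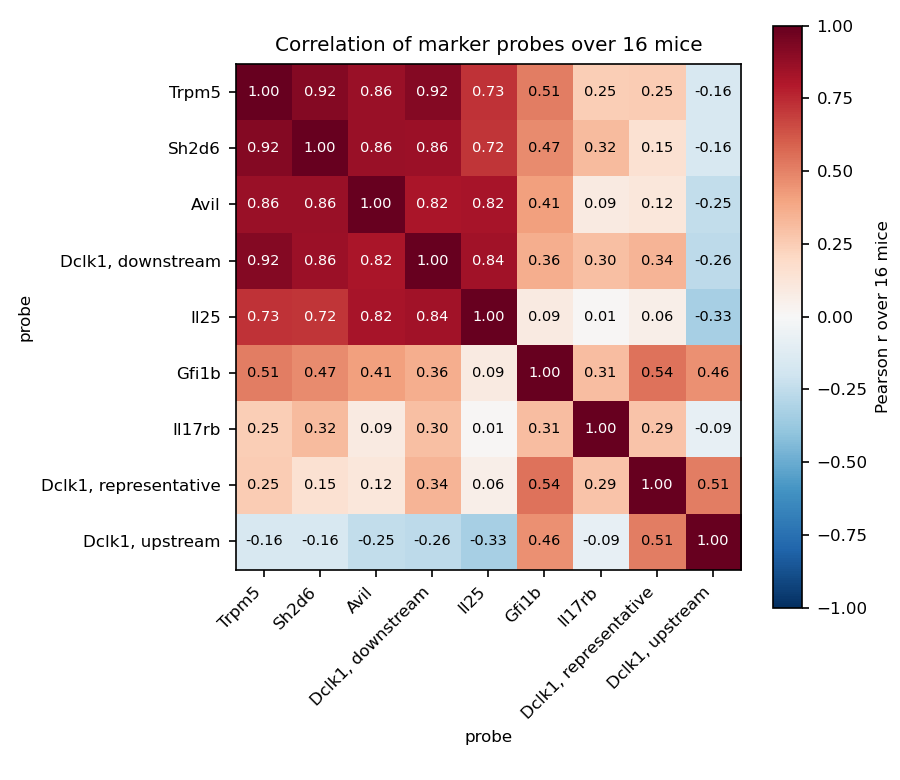
Pearson r over 16 mice between 9 marker probes (both axes), red above and blue below 0. Trpm5, Sh2d6, Avil, the downstream Dclk1 probe and Il25 form a block with r from 0.72 to 0.92, and the upstream Dclk1 probe has an r below 0 with all of them. The place of Il25 depends on Control 4: without it, r of Il25 was 0.194 with Trpm5, 0.199 with Sh2d6, 0.579 with Avil and 0.484 with the downstream probe.

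Genes with the pattern most like the members' included further tuft genes. Likeness was the Pearson r over 16 mice with the mean standardised value of the 6 members well above background on at least 12 arrays (Trpm5, Sh2d6, Avil, Dclk1, Gfi1b and Il17rb), over 24534 genes, members left out. The 10 highest were Rgs13 (r 0.92), Cbfa2t3 (0.91), Itprid1 (0.90), Alox5 (0.88), Crisp3 (0.87), Matk (0.85), Sh2d7 (0.84), Pex5l (0.84), Gnat2 (0.82) and Siglecf (0.82).
Of these, Rgs13, a regulator of G-protein signalling, Alox5, the lipoxygenase that makes leukotrienes, Matk, a tyrosine kinase, and Siglecf, a sialic-acid-binding lectin, are on the lists of tuft genes. Without Control 4 their r was 0.86, 0.85, 0.86 and 0.77. The tuft lists did not run one way: of their 46 genes, 17 (37%) had an r below 0, against 48.5% of all genes ranked, and the median r was 0.236, against 0.0119. The lowest were Itpr3, an inositol trisphosphate receptor of the cascade (r -0.60), Gnb3, a G-protein subunit (-0.54), and the phosphatase Ptpn18 (-0.53). Ranked by r with Trpm5 alone among 24540 genes, Sh2d6 came 5th, Avil 23rd, Il25 212th, Gfi1b 1701st, Dclk1 by its representative probe 6471st and Il17rb 6634th. Without Control 4 the ranks were 32 for Sh2d6, 86 for Avil, 94 for Gfi1b, 1865 for Il17rb, 2257 for Dclk1 and 4728 for Il25, so that Gfi1b stood close to Avil.

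The wider tuft lists hold 46 genes in all, and all were tested. In the chemosensory cascade of 12 genes, 0 passed the adjusted test in any group comparison, and the median difference was -0.03 for Control minus Sham, -0.09 for 5-ASA minus Control and -0.09 for 5-ASA minus Sham. Sucnr1, the receptor for succinate, had a difference of -1.44 for Control minus Sham and -1.86 for 5-ASA minus Sham (unadjusted limma p 0.0241 and 0.00558, adjusted 0.559 and 0.334). Its means were -6.29 ± 0.94 in 5-ASA (SD, n = 6), -5.87 ± 1.19 in Control (n = 6) and -4.43 ± 0.32 in Sham (n = 4), and it was well above background on 8 of 16 arrays.
Plcb2, the phospholipase of the cascade, averaged -5.87 ± 0.57 in 5-ASA, -5.22 ± 0.21 in Control and -5.24 ± 0.51 in Sham mice, with unadjusted limma p of 0.0192 for 5-ASA minus Control and 0.0374 for 5-ASA minus Sham, and it was well above background on 4 of 16 arrays. Itpr2, an inositol trisphosphate receptor, averaged 2.55 ± 0.29 in 5-ASA, 2.61 ± 0.21 in Control and 2.91 ± 0.18 in Sham mice (unadjusted limma p 0.0333 for 5-ASA minus Sham, adjusted 0.412). The list of effector synthesis (8 genes, among them Alox5, Ltc4s and Chat) had 0 genes past an unadjusted p of 0.05 by limma in any of the 3 comparisons.

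Among the 26 genes of tuft identity and signalling, 0 passed the adjusted test. With an unadjusted p under 0.05 there were 3, all for 5-ASA minus Sham, with differences of -1.76 for the transcription factor Spib, -0.60 for the phosphatase Ptpn6 and -0.70 for the lipid phosphatase Inpp5d (unadjusted limma p 0.00278, 0.046 and 0.0477, adjusted 0.334, 0.445 and 0.448). All of these are also expressed in B cells. B cell markers moved with them: 10 of 10 were lower in 5-ASA than in Sham, 8 at an unadjusted p under 0.05, where 4.95% of all genes were lower at that threshold, and 0 at an adjusted one. The log2 of their summed intensity ranged from 1.01 to 1.91 in 5-ASA mice, from 1.06 to 5.32 in Control mice and from 0.85 to 5.16 in Sham mice, and all 10 passed the filter. Their part in the differences of Spib, Ptpn6 and Inpp5d was not tested.

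The type 2 circuit comprises the cytokines, receptors and targets around interleukin 25. Of its 17 genes 13 were tested. Il5, Il9 and Il13, cytokines of type 2 lymphocytes, were well above background on at most 2 of 16 arrays, and Clca3 had no probe of that name. Il17ra, which pairs with Il17rb in the receptor, averaged -1.81 ± 0.16 in 5-ASA (SD, n = 6), -1.73 ± 0.25 in Control (n = 6) and -1.43 ± 0.19 in Sham (n = 4), with differences of -0.38 for 5-ASA minus Sham and -0.30 for Control minus Sham (unadjusted limma p 0.0117 and 0.0383, adjusted 0.334 and 0.559).
Il33, the alarmin, was at -1.61 ± 0.35 in 5-ASA, -1.28 ± 0.14 in Control and -0.99 ± 0.46 in Sham mice (5-ASA minus Sham -0.62, unadjusted limma p 0.00704, adjusted 0.334). Its receptor Il1rl1 was at -0.77 ± 1.34 in 5-ASA, -0.40 ± 1.19 in Control and -2.17 ± 1.43 in Sham mice (Control minus Sham 1.77, unadjusted limma p 0.0396, adjusted 0.559). No gene of the circuit passed the adjusted test in any comparison.

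Control 4 was at an end of the range for many genes of the tuft lists. It was the lowest of 16 mice for 13 of their 46 genes (28.3%), against 19.0% of all genes, and the highest for 9 (19.6%), against 9.22% of all genes. The 13 were Gnat3, Sucnr1, Rgs13, Alox5, Ltc4s, Chat, Pla2g4a, Hmx2, Hmx3, Bmx, Siglecf, Cd300lf and Krt18. The homeobox gene Hmx2 lay at -4.39 in Control 4, against -3.38 to -2.51 in the other 15 mice, and Gnat3, the taste G-protein gustducin, at -6.22 against -4.61 to -3.28. Other tuft-list genes were high in the same mouse, such as Lrmp at 2.05 (other mice -0.14 to 2.23) and Vav1, a guanine nucleotide exchange factor, at 2.29 (0.45 to 1.85).

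**Figure D5:**
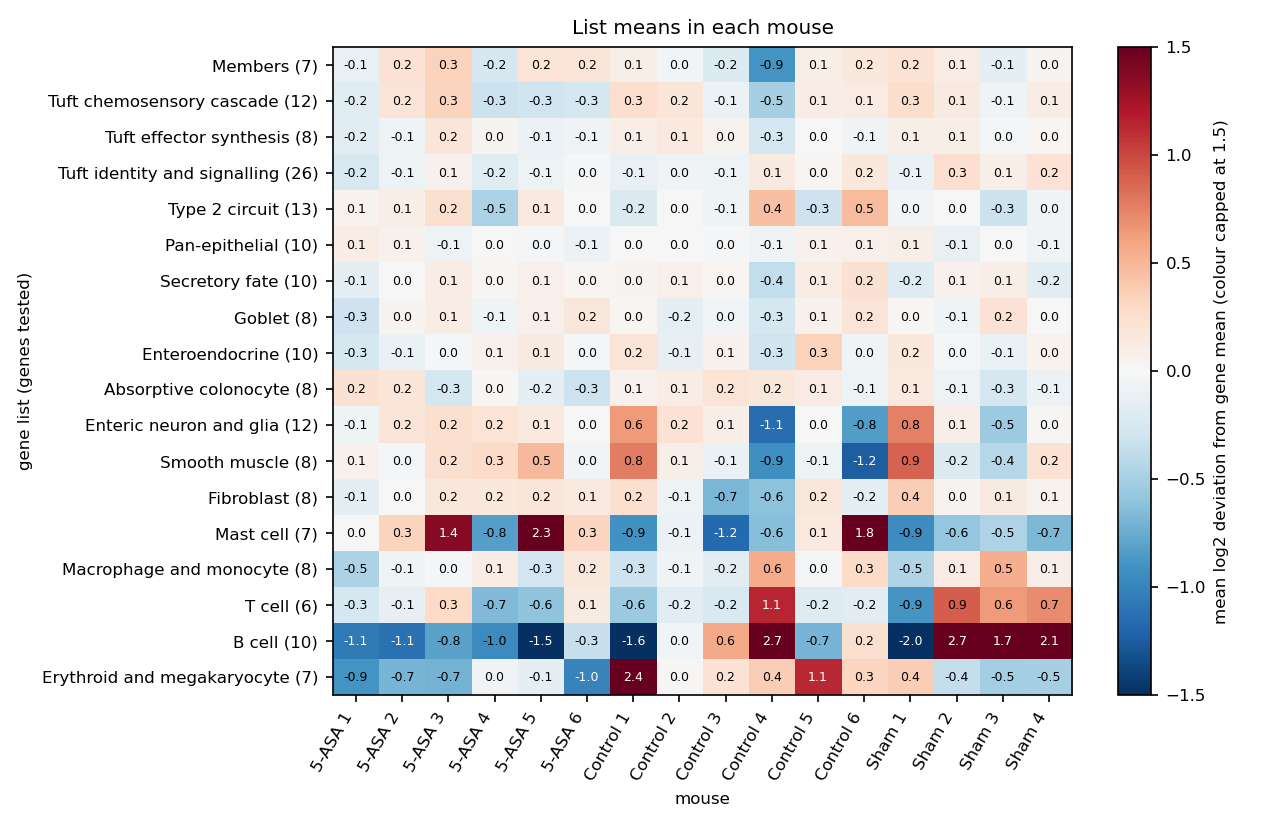
Mean log2 deviation from each gene's mean over 16 mice (colour and printed value, colour capped at 1.5) for the members and 17 gene lists (rows, with the number of genes tested), in 5-ASA, Control and Sham mice (columns). Control 4 is at -0.90 for the members, -1.14 for enteric neuron and glia, 2.73 for B cell and -0.05 for pan-epithelial genes.

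Markers of other cells also stood apart in Control 4. It was the lowest mouse for 11 of 12 markers of enteric neurons and glia and the highest for 6 of 10 B cell markers, and of 10 pan-epithelial genes it was the lowest for 2, near the 19.0% of all genes. It was also the lowest for 5 of 10 genes of secretory fate and the highest for 5 of 6 T cell markers. The log2 summed intensity of the enteric list ranged from 5.25 to 5.61 in 5-ASA mice, from 4.91 to 5.57 in Control mice and from 5.25 to 5.63 in Sham mice. That of the pan-epithelial list ranged from 9.65 to 9.86 in 5-ASA, from 9.72 to 9.83 in Control and from 9.66 to 9.86 in Sham mice, so Control 4 was inside the range of the other mice there. All 12 enteric and all 10 pan-epithelial markers passed the filter.

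Relations of the 9 kept probes with 5 such lists were computed (45 in all, pan-epithelial, enteric neuron and glia, smooth muscle, erythroid and megakaryocyte, and B cell). Of these, 3 passed an adjusted permutation p of 0.05 by Pearson and 0 by Spearman. Il25 with the enteric list had an r of 0.769 and a rho of 0.706 (adjusted permutation p 0.0229 and 0.0711). It was 0.903 within the first row, 0.601 within the second, 0.568 without Control 4 and 0.465 without the 2 farthest mice.
Il25 with the B cell list had an r of -0.664 and a rho of -0.703 (adjusted permutation p 0.0354 and 0.0711), -0.595 within the first row, -0.778 within the second, -0.544 without Control 4 and -0.641 without the 2 farthest mice. The upstream Dclk1 probe with the B cell list had an r of 0.737 and a rho of 0.638 (adjusted permutation p 0.0229 and 0.0865), 0.788 within the first row, 0.497 within the second, 0.727 without Control 4 and 0.574 without the 2 farthest mice. Trpm5, Sh2d6 and Avil had an r with the pan-epithelial list of 0.249, 0.177 and 0.268 (adjusted permutation p 0.671, 0.739 and 0.66). With the enteric list their r was 0.409, 0.503 and 0.523 over all mice, and -0.24, -0.01 and 0.12 without Control 4. It was 0.798, 0.933 and 0.879 within the first row, which holds Control 4, and -0.593, -0.535 and -0.104 within the second. The part of these cell types in the members' relations was not tested further.

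The row of the array was examined as a comparison of its own, with group in the model. It rests on the Control mice, 2 in the second row against 4 in the first. By limma 0 of 7 members passed an adjusted p of 0.05, against 5 genes (0.0204%) of all those tested, and 0 of 7 an unadjusted one, against 2.14%. Sh2d6 averaged -0.88 in the 2 Control mice of the second row and -1.32 in the 4 of the first (difference 0.44, interval -0.06 to 0.95). Control 4 (-1.99) was among these 4, and the difference ranged from 0.22 to 0.60 when each mouse was left out in turn. The Control mice of the second and first row did not overlap for 2 of 7 members, Sh2d6 and Dclk1, against 6.28% of all genes.

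The members' promoters were searched for the octamer ATGCAAAT, the site of POU-domain factors such as Pou2f3, on both strands. RefSeq windows (GRCm38.p6, 250 bases before to 50 after a start) were found for 6 of the 8 members, 7 windows in all, with none for Pou2f3 and Il25. The octamer was in 0 of 7, against 1.74% of 32851 windows of all genes. Its first 7 letters, ATGCAAA, part of the octamer and searched on both strands, were found in 1 member window, that of Avil, against 4.63% of all windows. It holds 2 matches, 1 on each strand. The window is printed as the only member window with a match, with the matches in capitals.
Avil, plus strand, chr10:127000459-127000758 in GRCm38.p6: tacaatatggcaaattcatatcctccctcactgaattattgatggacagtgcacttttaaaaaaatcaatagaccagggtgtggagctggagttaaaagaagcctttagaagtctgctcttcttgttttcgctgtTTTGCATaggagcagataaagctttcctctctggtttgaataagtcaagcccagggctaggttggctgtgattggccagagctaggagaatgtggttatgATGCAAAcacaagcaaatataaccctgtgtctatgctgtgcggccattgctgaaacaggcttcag
A match is a description of the letters in this window alone.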

How the data were processed

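Arrays of 16 mice (1 per mouse, in 3 groups taken from the sample titles) were analysed. Per the file headers, Agilent Feature Extraction 10.10.1.1 made the deposited scanner files. Their processed intensity had the background subtracted and a trend over the array removed, with no scaling across arrays, and mean and background intensity are uncorrected pixel values. Spot flags, per the file headers, are 0 or 1. The value table the authors deposited states no scale. Against the scanner values, the authors' table was inferred to hold log2 intensity scaled to the 75th percentile and centred per probe (median absolute difference of 0.0017 to 0.0282 per array after centring). Its column medians ran from 0.111 to 0.223 in 5-ASA mice, from -0.188 to 0.206 in Control mice and from -0.0461 to 0.0709 in Sham mice, and its scale, centring and direction are thus inferred.

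Here, processed intensities without control probes and outlying spots were put on the log2 scale, and the 75th percentile of the array was subtracted. Of 55681 probes, 27650 were named through RefSeq (GRCm38.p6) by accession and 28031 kept the file's name. Kept were 35079 probes flagged well above background in 4 or more mice, and the kept probe with the highest mean stood for a gene (24541 genes). No probe was saturated, and the number of arrays limits the precision. One limma model (version 3.58.1, R 4.3.3) took in all 3 groups with no covariate, Benjamini-Hochberg adjusted over all genes. The scripts were tested on simulated data. Correlations used 1e+05 permutations (exact within rows of 8 mice). Genes named were the members, from each of 17 lists at most 4 genes per comparison with the smallest unadjusted limma p under 0.05, and the 10 genes most like the members. A few further genes that this rule names, in lists of other cell types, are given only in counts. The members and lists were chosen with earlier results of these data known. Alternatives covered background, scaling, filter, probe choice, slide, row, replicate block, the authors' table and each mouse left out.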

Additional observations from a re-analysis of the deposited data

Results flagged for a closer look

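Within groups of 4 to 6 mice, the highest or lowest mouse was tested for its gap to the nearest other mouse. Of 27 such groups of the 9 kept probes, 6 had a mouse beyond Dixon's limit, which for a single group chance gives about 1 time in 20. The same mice recur over probes that vary together, so the 27 groups are not independent and no excess over chance can be read from the count. Among the Control mice, Control 4 was far below the others for Sh2d6 (-1.99), Avil (-3.48) and the downstream Dclk1 probe (-2.70). Also among the Control mice, Control 6 was far above the others for Gfi1b (-2.89). For Avil, 5-ASA 4 was far below the other 5-ASA mice (-2.93), and Sham 1 far above the other Sham mice (-2.22).

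The second Il17rb probe, outside the tests because it was dim, was well above background on 2 of 6 5-ASA arrays, against 0 of 6 Control and 0 of 4 Sham arrays.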

How the results depend on the processing

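The count of members called was 0 in all 3 group comparisons and for the row under all 19 other settings that could be run and with each of the 16 mice left out. Of 451 differences of single members under the other settings, 426 kept their direction and 25 turned, and of 65 medians over the members 4 turned. None was a called difference, and the cause was not tested. The median turned to -0.0966 for 5-ASA minus Control with the row as a covariate and within the second row, and for 5-ASA minus Sham to -0.206 with the row as a covariate and -0.0359 with the replicate block. For 5-ASA minus Control, Dclk1 was 0.0546 with the mean of its probes, 0.0466 both with the row as a covariate and within the second row, and 0.21 by the downstream probe, a setting chosen after seeing the data. Trpm5 was -0.10 and Sh2d6 -0.18 both with the row as a covariate and within the second row, and Il17rb was 0.0426 within slide 1. For 5-ASA minus Sham with the row as a covariate, Trpm5 was -0.46, Sh2d6 -0.37 and Avil -0.0785, and within slide 1 Trpm5 was -0.0234 and Il17rb 0.0649. For Control minus Sham, Gfi1b was 0.0294 within slide 2. For the second minus the first row, Dclk1 was 0.0733 with the mean of its probes, and Il25 0.12 with normexp. Il17rb there was -0.0321 with normexp, -0.0539 with quantile scaling, -0.0768 with median scaling and -0.014 centred on pan-epithelial genes.

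With each mouse left out in turn, 24 of 448 differences of single members and 5 of 64 medians turned. The median ranged from -0.25 to -0.0242 for Control minus Sham, from -0.0429 to 0.205 for 5-ASA minus Control, from -0.0442 to 0.108 for 5-ASA minus Sham and from -0.0379 to 0.459 for the row. Control minus Sham ranged from -0.13 to 0.13 for Sh2d6 and from -0.37 to 0.0644 for Trpm5. 5-ASA minus Control ranged from -0.0891 to 0.00079 for Dclk1, from -0.0485 to 0.20 for Sh2d6 and from -0.0371 to 0.39 for Trpm5. 5-ASA minus Sham ranged from -0.0872 to 0.0342 for Il17rb, from -0.00459 to 0.15 for Sh2d6 and from -0.0442 to 0.11 for Trpm5. The row difference ranged from -0.0379 to 0.47 for Gfi1b, from -0.0399 to 0.0804 for Il17rb, from -0.83 to 0.32 for Il25 and from -0.0386 to 1.00 for Trpm5.

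Same-numbered mice of different groups deviated from their group means with correlations of -0.213 to 0.607, not all above 0.1. Such correlations cannot settle whether same-numbered mice are related, and the main model did not pair them. With the replicate number as a block, 0 members were called in any comparison. For 5-ASA minus Sham, Trpm5 was then -0.18 and Sh2d6 -0.00861, and for the row, Il25 was 0.00403 and Il17rb -0.0366.

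The count of correlated member pairs, 4 of 21, was 0 within the second row, 0 without the 2 farthest mice, and 7 centred on pan-epithelial genes, with or without Control 4 (the setting without it was chosen after seeing the data). Fewer mice enter the first pair of settings, but the first row, with 8 mice like the second and with Control 4 among them, gave 3. The count was 4 without Control 4 and 5 on deviations from the group means. By Spearman it was 5 over all mice, 0 within either row, 0 without the 2 farthest mice and 2 without Control 4. On deviations the Spearman count was 9, and centred on pan-epithelial genes it was 7, or 5 without Control 4. Centring subtracts the same value from every member in a mouse, which by itself can raise r, so the count of 7 does not measure closer variation. Signal over background limits Il25, Pou2f3 and the second Il17rb probe, whose values lie near the detection limit, and small groups leave wide intervals for Trpm5 and Il25.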
